A study of Mus musculus with 5 samples.

Results

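The genes described here are 10 early-response genes, namely the EGR genes Egr1, Egr2 and Egr3, the NR4A genes Nr4a1, Nr4a2 and Nr4a3, the IER genes Ier2, Ier3 and Ier5, and Myc. They were taken by symbol from an expression table of the mouse macrophage-like line RAW264.7, and all 10 were found among 16003 genes with a value. The control cells express Renilla luciferase, and the CD137 cells express Renilla luciferase plus mouse Cd137 (Tnfrsf9), a TNF receptor superfamily member that co-stimulates T cells, so both groups carry the luciferase. Of the 5 libraries in the series (2 control, 3 CD137), 3 were used, labelled control replicate 2 for the first group and replicates 2 and 3 for CD137; the others were not analysed here. The sources used here do not give the vector and its promoter, whether each line is a clone or a pool, the time since the cells were last fed or stimulated, or whether replicates are separate cultures.

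Early-response genes are switched on within minutes by signals that act on transcription factors already present in the cell, such as SRF with its ELK partners, CREB and NF-kB, and their short-lived mRNAs fade soon after the signal ends. EGR proteins are zinc-finger transcription factors, NR4A proteins are orphan nuclear receptors, and MYC is a basic helix-loop-helix factor that binds DNA with MAX and drives growth and ribosome production. IER2 and IER5 are nuclear proteins of a shared family, whereas IER3, also called IEX-1, is an unrelated small protein tied to cell survival and NF-kB signalling. In macrophages these genes respond to colony-stimulating factors, adhesion and Toll-like receptor ligands.

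The windows of 250 bases before the RefSeq start sites of the NR4A genes and of Ier5 and Ier3 are printed because these are the families whose members differed in whether they passed the test or in direction. They are from GRCm38.p6, the assembly that mm10 names, and are written 5′ to 3′ on the gene's strand. In the NR4A windows, capitals mark CGTCA on either strand (TGACG on the printed strand where it lies on the other), the core of the cyclic AMP response element that CREB binds. The windows are chr15:101266596-101266845 (plus strand) for Nr4a1, chr2:57124004-57124253 (minus strand) for Nr4a2 and chr4:48045055-48045304 (plus strand) for Nr4a3.
Nr4a1: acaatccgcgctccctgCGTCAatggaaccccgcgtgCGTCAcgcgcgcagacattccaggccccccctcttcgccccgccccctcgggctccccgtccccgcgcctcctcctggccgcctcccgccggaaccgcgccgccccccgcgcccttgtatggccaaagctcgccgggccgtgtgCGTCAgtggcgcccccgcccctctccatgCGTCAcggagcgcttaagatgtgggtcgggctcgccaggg
Nr4a2: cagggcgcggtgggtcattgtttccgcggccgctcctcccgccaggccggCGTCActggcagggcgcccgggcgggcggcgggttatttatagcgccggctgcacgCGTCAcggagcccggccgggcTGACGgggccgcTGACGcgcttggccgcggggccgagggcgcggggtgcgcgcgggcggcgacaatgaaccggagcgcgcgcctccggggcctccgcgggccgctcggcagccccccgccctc
Nr4a3: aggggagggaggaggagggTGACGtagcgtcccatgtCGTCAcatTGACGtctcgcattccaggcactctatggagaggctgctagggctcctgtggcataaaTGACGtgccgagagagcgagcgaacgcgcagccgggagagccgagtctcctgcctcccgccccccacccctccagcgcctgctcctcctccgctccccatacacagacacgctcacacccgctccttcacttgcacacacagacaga

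Each NR4A window held 4 matches to CGTCA. Among all 32851 windows of the same length in the RefSeq set, 17.8% held at least 1 match and 0.137% held 4 or more. The gene that rose (Nr4a2) and those that did not pass or were too low to test (Nr4a1 and Nr4a3) had the same number of matches.

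In the IER windows below, capitals mark CCAAT on either strand (ATTGG on the printed strand where it lies on the other), the sequence bound by NF-Y. The windows are chr1:155099637-155099886 (minus strand) for Ier5 and chr17:35821463-35821712 (plus strand) for Ier3.
Ier5: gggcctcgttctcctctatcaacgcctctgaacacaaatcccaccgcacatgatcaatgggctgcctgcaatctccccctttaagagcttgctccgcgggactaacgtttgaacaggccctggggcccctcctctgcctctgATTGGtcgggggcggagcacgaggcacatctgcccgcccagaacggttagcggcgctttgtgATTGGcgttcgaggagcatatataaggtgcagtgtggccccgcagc
Ier3: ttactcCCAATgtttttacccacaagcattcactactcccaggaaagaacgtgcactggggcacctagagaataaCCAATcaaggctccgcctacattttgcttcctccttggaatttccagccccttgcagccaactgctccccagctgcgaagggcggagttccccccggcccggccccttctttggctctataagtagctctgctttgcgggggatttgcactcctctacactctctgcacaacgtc

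Both IER windows held 2 matches to CCAAT, and neither held CGTCA. Of all windows, 33.8% held any match to CCAAT. A match to the NF-kB site consensus was found in the Ier3 window and in none of the Ier5 or NR4A windows (7.25% of all windows hold it). The Egr2 window at chr10:67535249-67535498 held 2 such matches, and the other Egr2 windows held none. The CArG box, the site of SRF, was in none of the 5 printed windows and in 4 of the 5 windows of Egr2 (1.47% of all windows). The Egr2 windows that start at chr10:67537619, 67537620 and 67537680 overlap and hold the same CArG match, so these 4 windows are not 4 separate sites. GGGCGG, the GC box, was in all 5 printed windows (32.7% of all), and TGANTCA, the AP-1 site, in none of them (6.75% of all). These are matches of letters in these windows only. The RefSeq table used here held windows for 6 of the 10 genes, Egr2 and the 5 printed.

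Tnfrsf9 stood at 5.06 FPKM (fragments per kilobase of transcript, relative to the library total) in the control and at 364 and 370 FPKM in CD137 replicates 2 and 3, which fits the labels. Estimated depth, in units of 1e+06 fragments, was 18.1, 17.8 and 17.9 in control replicate 2 and CD137 replicates 2 and 3. All 9 macrophage markers with a value were expressed, the lowest at 37.8 FPKM (Adgre1 in the control) and the highest at 1693 FPKM (Lyz2 in the control). Of these 9, 4 rose, 4 fell (Lyz2 among them, to 646 and 669 FPKM) and 1 did not pass the test described below, so 88.9% were called beside 42.6% of all genes. Among the markers of T cells, B cells, fibroblasts and epithelial cells that had a value, Lck reached 4.59 FPKM, and the rest stayed at or below 2.60 FPKM. In the order of control replicate 2 and CD137 replicates 2 and 3, summed FPKM was 3.61, 5.21 and 4.81 for 4 T cell markers (mostly Lck), 0.65, 1.03 and 1.93 for 3 B cell markers, and 0.29, 0.93 and 0.29 for 6 fibroblast markers. The 4 epithelial markers (Epcam, Krt8, Krt18 and Cdh1) summed to 0.67 FPKM in the control, but to 6.28 and 1.17 FPKM in CD137 replicates 2 and 3, so CD137 replicate 2 stood apart in these genes. Values of the 10 early genes are therefore given for each CD137 library. The part of this difference in the results was not tested.

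Of the 10 early genes, Myc, Nr4a2 and Ier5 rose in CD137 cells, Ier3 fell by a small amount, and Egr1, Egr3, Nr4a1 and Ier2 did not pass the test. Egr2 and Nr4a3 stayed under 1 FPKM in every library and were not tested. The test was limma on log2(FPKM + 1) over the 10720 genes that reached 1 FPKM in any library, with Benjamini-Hochberg adjustment over all of them and a threshold of 0.05, and "rose" and "fell" are used only for genes past it. In that test 42.6% of all genes were called, 24.4% higher and 18.2% lower in CD137 cells, so the 4 of 8 early genes called (3 higher, 1 lower) were close to the background share. A difference of at least 1.5-fold on this scale was rarer, at 8.34% of all genes, and was reached by 3 of the 8, Myc, Nr4a2 and Ier5. This count was not planned and was chosen after the data were seen. With 1 control library the test has 1 residual degree of freedom and takes the control to vary as the CD137 libraries do. No gene passed when all 16003 genes entered the fit, where the smallest adjusted p was 0.0802, 5281 genes had an unadjusted p under 0.05, and 4 of the 10 early genes, the same Myc, Nr4a2, Ier5 and Ier3, were among them.

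**Figure D1:**
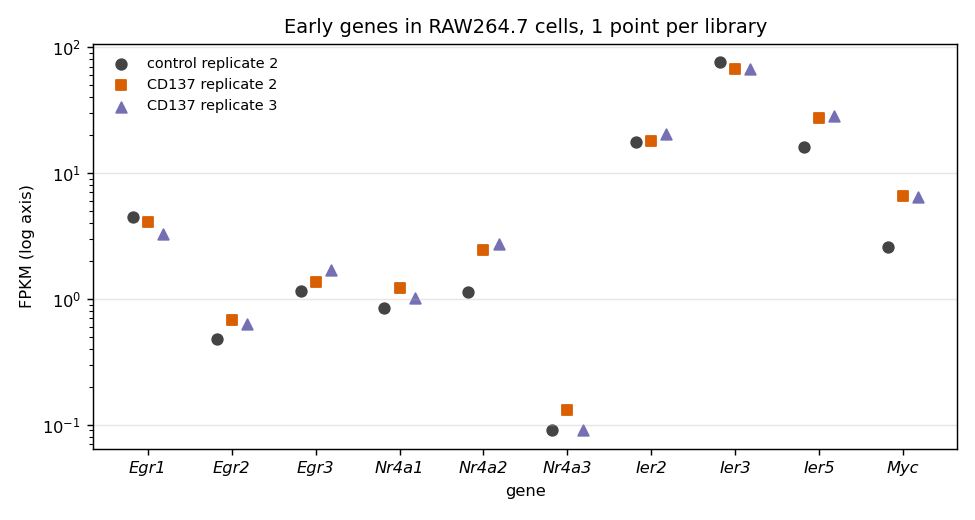
FPKM (log axis) of the 10 early genes, 1 point per library: control replicate 2 (circles), CD137 replicate 2 (squares) and CD137 replicate 3 (triangles). Myc, Nr4a2 and Ier5 stand higher in both CD137 libraries than in the control, while Ier3, the highest of the 10, goes from 75.7 to 67.5 FPKM.

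Levels spanned a wide range. In the CD137 libraries the order per length was Ier3, Ier5, Ier2, Myc, Egr1, Nr4a2, Egr3, Nr4a1, Egr2 and Nr4a3, from 67.5 ± 0.007 FPKM to 0.11 ± 0.028 FPKM (mean ± SD, n = 2), and no 2 neighbours in that order overlapped between these libraries. In the control the order differed in that Ier2 (17.7 FPKM) stood above Ier5 (16.1 FPKM), Egr1 above Myc, and Egr3 (1.16 FPKM) just above Nr4a2 (1.13 FPKM). The whole fragments behind these values could be recovered from the authors' p-values for all 10 genes and ran from 5 for Nr4a3 to 1449 for Ier3 in the control. Ratios of fragments below are adjusted for depth and pool the CD137 libraries. Their 95% intervals (exact, Clopper-Pearson) cover counting error only.

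Myc (gene ID 17869, chr15:61985341-61990361 in mm10, plus strand) was at 2.56 FPKM in the control and at 6.57 and 6.49 FPKM in CD137 replicates 2 and 3. The CD137 libraries nearly coincided and both lay well above the control. The mean of 6.53 ± 0.06 FPKM (SD, n = 2) was 2.55-fold the control, and the log2 fold change was 1.08 ± 0.08 (SE, limma adjusted p = 0.00148), on a log2(FPKM + 1) scale that understates changes of low genes. By fragments, 110 in the control against 277 and 275, the ratio was 2.55 with an interval of 2.07 to 3.15. The genes whose differences from the control were closest to those of Myc were Glipr1, Pla2g12a and Irf7, at Euclidean distances of 0.012, 0.018 and 0.019 over the log2(FPKM + 1) differences of the 2 CD137 libraries.

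The NR4A genes were low, and Nr4a2 (NURR1) was the member that passed. Nr4a2 (gene ID 18227, chr2:57106830-57124003, minus strand) was at 1.13 FPKM in the control and at 2.46 and 2.74 FPKM in CD137 replicates 2 and 3. Both CD137 values were more than their own spread above the control. The log2 fold change was 0.76 ± 0.12 (SE, limma adjusted p = 0.00746). Its fragments numbered 76, 159 and 169, a ratio of 2.19 with an interval of 1.70 to 2.85.

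Nr4a1 (NUR77, gene ID 15370, chr15:101254213-101274795, plus strand) was at 0.85 FPKM in the control and 1.22 and 1.02 FPKM in the CD137 libraries, both above the control but spread widely. It did not pass (log2 fold change 0.19 ± 0.14 SE, limma adjusted p = 0.313). With 41, 55 and 50 fragments its ratio was 1.3, and the interval of 0.898 to 1.91 holds both no change and a rise close to that of Nr4a2. The difference between Nr4a1 and Nr4a2 was not tested.

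Nr4a3 (NOR1, gene ID 18124, chr4:48044889-48086447, plus strand) was near the limit of detection, at 0.09, 0.13 and 0.09 FPKM in control replicate 2 and CD137 replicates 2 and 3. The fragments behind these values were 5, 9 and 9. FPKM put CD137 replicate 3 level with the control, whereas the fragments put both CD137 libraries equally above it, and the table lists 5 transcripts for this gene. The fragment ratio of 1.83 had an interval of 0.654 to 6.29, so no difference was detectable at this depth.

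Of the IER genes, Ier5 rose, Ier3 fell and Ier2 did not pass. Ier5 (gene ID 15939, chr1:155096367-155099636, minus strand), whose protein is a co-regulator of heat shock factor HSF1, was at 16.1 FPKM in the control and 27.2 and 28.6 FPKM in CD137 replicates 2 and 3. The CD137 libraries were far closer to each other than to the control. The log2 fold change was 0.76 ± 0.06 (SE, limma adjusted p = 0.00151), and 946, 1573 and 1662 fragments gave a ratio of 1.74 with an interval of 1.61 to 1.87.

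Ier2 (gene ID 15936, chr8:84661331-84662852, minus strand) was at 17.7, 18.1 and 20.3 FPKM, with CD137 replicate 2 next to the control and replicate 3 above both. The log2 fold change was 0.11 ± 0.08 (SE, limma adjusted p = 0.319). On 483, 486 and 548 fragments the ratio was 1.09, with an interval of 0.974 to 1.21. Ier2 stood slightly above Ier5 in the control and below it in both CD137 libraries.

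Ier3 (gene ID 15937, chr17:35821713-35822911, plus strand), an NF-kB target, was at 75.7 FPKM in the control and at 67.5 FPKM in each CD137 library. Its ratio of 0.892 came from 1449, 1270 and 1277 fragments, with an interval of 0.836 to 0.952. The log2 fold change was -0.16 ± 0.04 (SE, limma adjusted p = 0.0276). This call was lost without the mean-variance trend (limma adjusted p = 0.0854) and with all genes in the fit (limma adjusted p = 0.0831). Over 6 alternative fits the limma adjusted p ranged from 0.0170 to 0.0854, and 4 of them kept the call.

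No EGR gene passed the test. Egr1 (gene ID 13653), the member most used as a read-out of ERK signalling, was at 4.46 FPKM in the control and 4.10 and 3.30 FPKM in CD137 replicates 2 and 3. Both CD137 libraries lay below the control, but they differed from each other by more than replicate 2 differed from the control. The log2 fold change was -0.22 ± 0.13 (SE, limma adjusted p = 0.222). The fragments, 246, 222 and 180, gave a ratio of 0.829 with an interval of 0.706 to 0.976, which counts no spread between libraries.

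Egr3 (gene ID 13655, chr14:70077445-70082613, plus strand) was at 1.16 FPKM in the control and 1.37 and 1.69 FPKM in the CD137 libraries, each above the control and apart from each other. Its log2 fold change was 0.23 ± 0.14 (SE, limma adjusted p = 0.249), with a fragment ratio of 1.34 (interval 1.03 to 1.75) from 80, 94 and 117 fragments. Egr2 (gene ID 13654, chr10:67534453-67547493, plus strand), known as a factor of macrophage and nerve myelin development, was at 0.48, 0.68 and 0.63 FPKM. Its 34, 40 and 39 fragments gave a ratio of 1.18, with an interval of 0.779 to 1.82, so neither a small rise nor a small fall could be told from no change.

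**Figure D2:**
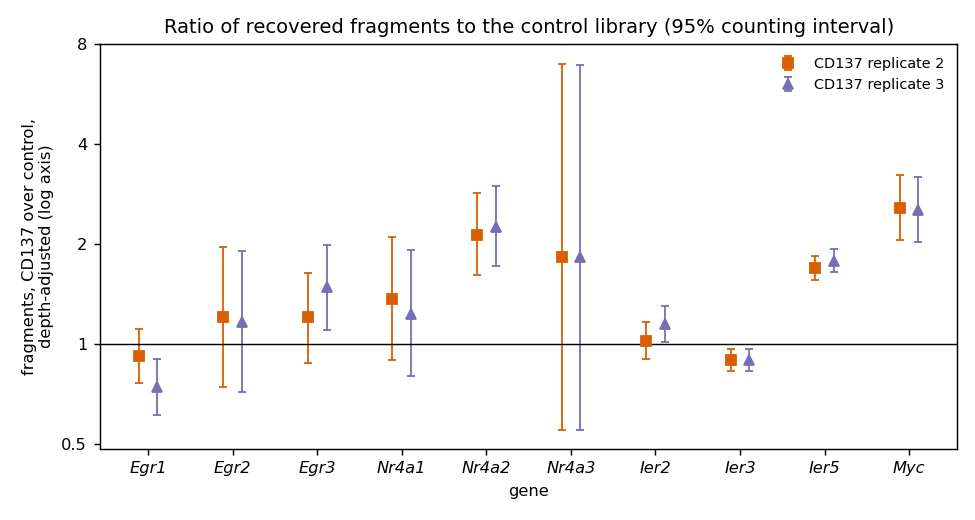
Fragments in each CD137 library over the control library, adjusted for depth (log axis), with 95% counting intervals, for CD137 replicate 2 (squares) and replicate 3 (triangles). The intervals of both libraries lie above 1 for Myc, Nr4a2 and Ier5 and below 1 for Ier3, and that of Nr4a3 spans from 0.548 to 6.96 over the libraries.

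The authors' deposited table gives Poisson p-values for pairs of libraries, which compare libraries and not conditions. In the authors' deposited table Egr1 had p = 0.357 between the control and CD137 replicate 2 but p = 0.00211 between the control and CD137 replicate 3. For Egr3 as well, the authors' deposited table has the smaller p with CD137 replicate 3. In the authors' deposited table Ier2 had p = 0.715 between the control and CD137 replicate 2 and p = 0.0265 between the control and CD137 replicate 3. For Egr1, Egr3 and Ier2 the unadjusted result of such a pair therefore depended on which CD137 library was taken.

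Related genes outside the 10 were counted in the same test. Of 11 tested AP-1 genes, which encode leucine-zipper factors, 6 rose (Fos, Batf, Junb, Mafk, Atf3 and Maff) and 0 fell. The share of these AP-1 genes that rose was 54.5% beside 24.4% of all genes. Their median log2 fold change was 0.33, against 0.03 for all genes tested. Fos was at 2.66 FPKM in the control and 8.93 and 8.56 FPKM in the CD137 libraries, and Batf at 1.27, 4.65 and 4.82 FPKM. Mafg was at 34.6, 37.9 and 37.6 FPKM and did not pass. Fosb was at 0.33, 1.01 and 0.39 FPKM, high in CD137 replicate 2 only, the library with the highest epithelial marker sum. A link between Fosb and those markers was not tested.

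In a list of 39 other early genes, 35 were tested, of which 14 rose, 5 fell and 16 did not pass, with a median log2 fold change of 0.16. The higher share, 40%, stands beside 24.4% of all genes, and the lower share, 14.3%, beside 18.2%. The smallest p-values belonged to Dusp4, a MAP kinase phosphatase, which rose from 11.6 FPKM to 29.8 and 28.4 FPKM, Rgs1, a regulator of G protein signalling, which rose from 14.6 FPKM to 30.2 and 30.1 FPKM, and Ppp1r15a (GADD34), a phosphatase subunit of the stress response, which rose from 35.8 to 66.0 FPKM in each CD137 library. Nfkbia, the gene for the NF-kB inhibitor IkB alpha, was at 113, 108 and 113 FPKM and did not pass. The 5 that fell, named after their values were seen, were Btg2, Rgs2, Klf4, Csrnp1 and Tnfaip3. Btg2, an antiproliferative early gene, was at 23.6 FPKM in the control and 15.2 and 15.8 FPKM in the CD137 libraries. Genes of this list thus passed in both directions, but only the higher share was above that of all genes.

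Genes that act upstream of early genes passed the test less often than all genes, in either direction. The list held 24 tested genes of the RAS, RAF and ERK cascade and of SRF, ELK, MRTF and CREB factors. Of these, 4 rose (Crem, Araf and Map2k2 among them), 3 fell (Hras, Rps6ka1 and Map2k1) and 17 did not pass. The share called was 29.2% beside 42.6% of all genes. The share higher was 16.7% beside 24.4%, and the share lower 12.5% beside 18.2%. Crem, a CREB-family gene that also encodes the repressor ICER, rose 2.04-fold, from 3.97 FPKM to 8.50 and 7.73 FPKM. Srf was at 18.3, 16.1 and 17.7 FPKM, with both CD137 values below the control and no pass of the test.

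Feedback inhibitors of ERK signalling overlap the list of other early genes in Dusp4, Dusp5 and Dusp6. Of 8 tested members, 3 rose (Dusp4, Spry4 and Dusp5) and 0 fell. The share called was 37.5% beside 42.6% of all genes, and the share higher was 37.5% beside 24.4%. Spry4, a Sprouty protein, was at 0.65 FPKM in the control and 2.45 and 2.56 FPKM in the CD137 libraries. Spred1 was at 101 FPKM in the control and 96.5 and 96.3 FPKM in the CD137 libraries and did not pass. Of 4 tested partners of EGR and NR4A proteins, Nab2, a co-repressor of EGR factors and itself an EGR target, fell from 17.6 FPKM to 14.1 and 13.8 FPKM (limma adjusted p = 0.0119), which puts the share called at 25% beside 42.6% of all genes. Nab1, Rxra and Rxrb did not pass, Rxrb being at 39.1, 41.2 and 44.6 FPKM.

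**Figure D3:**
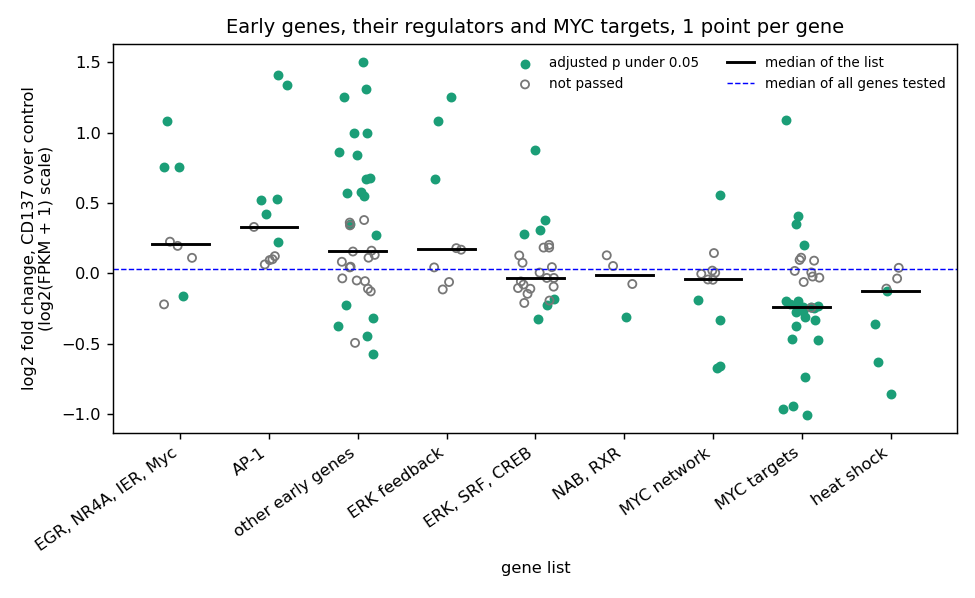
Log2 fold change of CD137 over control on the log2(FPKM + 1) scale, 1 point per tested gene, filled where the limma adjusted p was under 0.05, with the median of each list (bars) and of all genes tested (dashed line, 0.03). AP-1 genes lie mostly above the dashed line, and MYC targets and heat shock genes mostly below it.

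Mycn, a paralogue of Myc better known from neural tissue, was far higher per length than Myc in these cells. It was at 241 FPKM in the control and 205 and 216 FPKM in CD137 replicates 2 and 3, and it fell (log2 fold change -0.19 ± 0.045 SE, limma adjusted p = 0.0249). The FPKM of Mycn was 94.0 times that of Myc in the control and 31.2 and 33.3 times in the CD137 libraries. In both CD137 libraries the gain of Myc in FPKM was smaller than the loss of Mycn.

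Of 11 tested genes of the MYC network, which holds MYC paralogues, their dimer partners and MYC's ubiquitin ligase, 4 fell (Mxi1, Max, Mxd3 and Mycn) and 1 rose (Mxd4), so 45.5% were called, close to the 42.6% of all genes, and 36.4% were lower beside 18.2%. Max, the partner MYC needs to bind DNA, fell from 48.2 FPKM to 38.9 and 37.2 FPKM. Mxi1, which competes with MYC for MAX, fell from 60.4 FPKM to 37.8 and 38.0 FPKM, and Mxd3, of the same MXD group, from 3.13 FPKM to 1.53 and 1.65 FPKM. Mlx, at 19.6, 19.3 and 19.8 FPKM, did not pass.

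**Figure D4:**
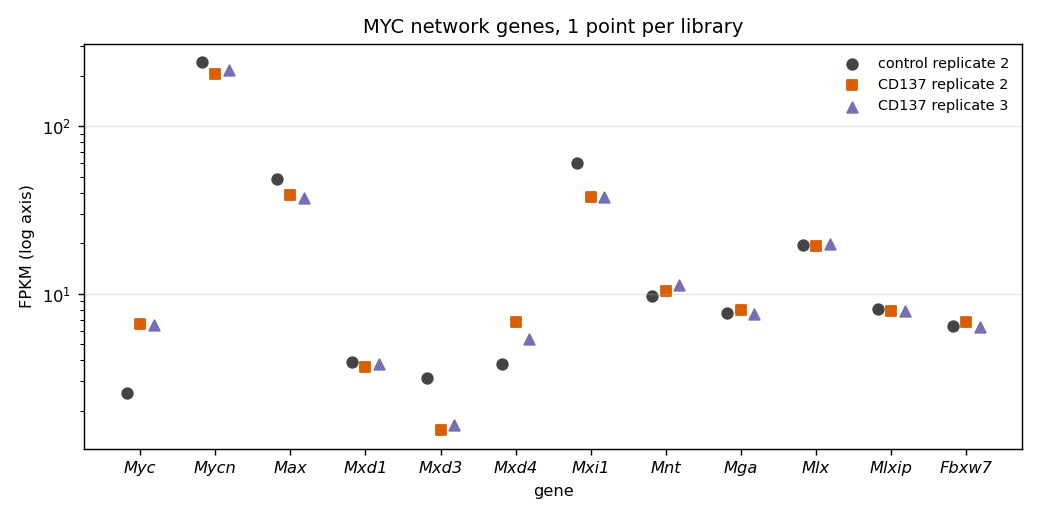
FPKM (log axis) of Myc, Mycn and other MYC network genes, 1 point per library: control replicate 2 (circles), CD137 replicate 2 (squares) and CD137 replicate 3 (triangles). Mycn, at 205 to 241 FPKM, stands far above Myc, and Mxi1 and Max are lower in both CD137 libraries.

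Well-known MYC target genes were mostly lower in CD137 cells, with Myc higher. Of 34 tested, 21 fell, 4 rose and 9 did not pass, so 61.8% were lower against 18.2% of all genes, and the median log2 fold change was -0.24. Ptma, which encodes prothymosin alpha, was at 2786 FPKM in the control and 1418 and 1353 FPKM in the CD137 libraries. Cad, the enzyme that starts pyrimidine synthesis, fell from 35.9 FPKM to 17.5 and 18.3 FPKM. The 4 that rose were Tfrc, Odc1, Gnl3 and Ccnd2, the last 3 named after their values were seen. Tfrc, the transferrin receptor, was at 20.3 FPKM in the control and 45.2 and 43.6 FPKM in the CD137 libraries, and Odc1, the first enzyme of polyamine synthesis, rose from 156 FPKM to 209 and 207 FPKM. Npm1, the nucleolar protein nucleophosmin, was at 1834, 1828 and 1782 FPKM and did not pass.

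Heat shock genes can respond to handling and heat, as early genes can. Of 7 tested, 4 fell and 0 rose, so 57.1% were lower beside 18.2% of all genes, and none was higher beside 24.4%. Another 3 stayed under 1 FPKM and were not tested. In control replicate 2 and CD137 replicates 2 and 3, Hspa1a, one of the most inducible, was at 0.07, 0.09 and 0.16 FPKM. Hspa1b was at 0.98, 0.51 and 0.50 FPKM and Hspb1 at 0.44, 0.06 and 0.06 FPKM, both lower in the CD137 libraries. The 3 most abundant were Hspa8, Hspe1 and Hsp90aa1, of which Hspa8 was at 1100 FPKM in the control and 608 and 606 FPKM in the CD137 libraries. The part of handling in the early-gene values was not tested. In bulk RNA, fewer cells that express a gene and less of its RNA in each cell cannot be told apart.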

How the data were processed

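Oligo-dT beads were used to prepare the libraries, per the labels' protocols, and groups and replicate numbers come from the sample titles. The authors deposited FPKM for 21990 genes, rounded to 0.01, of which 16003 have a value; 1 broken line was left out. The submitters' processing notes name HISAT2, Bowtie2, RSEM and mm10, with no roles; whether counting used strand is not stated there or in the labels. The deposited log2 ratios, p-values and adjusted p (a score, since some exceed 1) come from a Poisson test of 2 libraries, per the file headers.

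Whole fragments (or reads; the table does not say which) were solved from the deposited p-values, which equal 2 times the smaller side of the distribution of fragments in the second library given the first. Depth ratios of 0.983 and 0.988 to the control were shared by most low genes, and a unique solution was found for 11755 genes (73.5%), tested on simulated data.

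FPKM were tested with limma 3.58.1 in R 4.3.3 (empirical Bayes, mean-variance trend) on log2(FPKM + 1), for genes that reached 1 FPKM in any library; the fit was also tested on simulated data. Alternatives were a pseudocount of 0.1, all genes, a minimum of 5 FPKM, median-ratio scaling, no trend, limma-voom on recovered fragments, and leaving out each CD137 library. P-values reflect only how far these libraries differ from each other, a spread that may be technical. Other statistics used Python 3.11.15 with scipy 1.17.1.

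The 10 genes, the lists and the minimum of 1 FPKM were chosen with earlier results of these data known. Named were all 10 genes, Tnfrsf9, and from each other list up to 3 genes with the smallest p past the threshold and the most abundant that did not pass (for marker and stress lists, up to 3 by abundance); other names were added after values were seen. Start-site windows are from RefSeq (GRCm38.p6). Marker genes without a value were not used here, and some genes that this rule names are not reported here.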

Additional observations from a re-analysis of the deposited data

How the results depend on the processing

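The main fit called 4 of 8 early genes and 4563 of all 10720 genes tested (42.6%). It also called 64 of 124 other early genes, regulators and MYC network and target genes. The fit of all 16003 genes made 0 calls by limma, so each of these counts became 0. These fits differ only in the low genes tested. Under the other 5 fits, 3 or 4 of the early genes were called, 54 to 65 of the other listed genes, and 3801 to 4545 of all genes. The numbers tested were smaller in 2 of these fits, so the counts are not on the same base. With a minimum of 5 FPKM, 3 of 4 early genes, 59 of 105 other listed genes and 4406 of 8843 genes in all were called. With limma-voom on recovered fragments these were 4 of 8, 54 of 92 and 3933 of 8364. Over the alternative fits that give a test, 5 calls of single early genes were lost and 0 reversed; the 5 were Myc, Nr4a2, Ier5 and Ier3 with all genes, and Ier3 without the trend. Adjusted p ranged from 1.66e-05 to 0.0802 for Myc, from 0.0004 to 0.0892 for Nr4a2 and from 7.57e-07 to 0.0802 for Ier5. Without either CD137 library no test is possible, since no residual degree of freedom is left, and 3 early genes stayed at least 1.5-fold apart (3 with either library left out, an alternative chosen after seeing the data). Median-ratio scaling gave 50.6% of calls as higher, against 57.3%. No paired analysis was possible because the groups share replicate number 2 only among the 3 libraries used, and the sample titles give no pairing. Depth limits Egr2, Nr4a1 and Nr4a3, with 5 to 55 fragments per library, whose counting intervals all include a ratio of 1.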
